A study of Rattus norvegicus with 8 samples.

Results

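The regions described here are the stretches of rat genome that were listed with the histone mark H3K36me3 in unstimulated aortic smooth muscle cells and had no counterpart in the list made after angiotensin II (AngII). A region was a member when it came from the control H3K36me3 list, was 5000 to 149999 bp wide and overlapped no region of the AngII H3K36me3 list by even 1 bp. There were 1811 such control-only regions. They were 15.6% of the 11644 control regions of that width range and 10.4% of all 17425 control regions, and they covered 21.03 Mb, or 3.64% of the base pairs under control H3K36me3. The AngII list held 16578 regions. The cells were vascular smooth muscle cells in primary culture, taken from Sprague-Dawley rats (thoracic aorta) and grown in serum-containing medium. Control cells were untreated. AngII cells received 0.1 uM AngII, a peptide hormone that constricts vessels, for 3 h after overnight serum starvation, a step that the labels give for the AngII samples only, so starvation and AngII cannot be told apart. Each condition had 1 H3K36me3, 1 H3K4me3 and 1 RNA library, so no difference between conditions has a replicate check and none was tested. The input libraries were not analysed here.

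H3K36me3 is deposited along gene bodies by Setd2, which travels with elongating RNA polymerase II. Broad stretches of the mark therefore usually lie over transcribed genes, from some distance inside the promoter to the end of the gene. H3K4me3, by contrast, marks the start sites of active and poised genes. In smooth muscle cells both marks are found at expressed contractile, matrix and housekeeping genes.

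Some control-only regions lay inside expressed genes, some over silent genes and most away from any locus of the deposited RNA data. The promoters of 4 genes are shown because they stand for the first 2 cases. Tlr4 and Rp2 carried H3K4me3 at their start in both conditions and a control-only region inside the gene. At Abo the control-only region and H3K4me3 both lay over the start, and at the silent receptor gene Vom2r63 a control-only region lay over the start with no H3K4me3 in either condition. Each sequence runs from 250 bases before to 50 bases after the gene start in RefSeq (build GRCr8, in the direction of transcription: plus strand for Tlr4 and Vom2r63, minus strand for Abo and Rp2). Capitals mark CG dinucleotides, the sites of DNA methylation, which read the same on both strands.
Tlr4: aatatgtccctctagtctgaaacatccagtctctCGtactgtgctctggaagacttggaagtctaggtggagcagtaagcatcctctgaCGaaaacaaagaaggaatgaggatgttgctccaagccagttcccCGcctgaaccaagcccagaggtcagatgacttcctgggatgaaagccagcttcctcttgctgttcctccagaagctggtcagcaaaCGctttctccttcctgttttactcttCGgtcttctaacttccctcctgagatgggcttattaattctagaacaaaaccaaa
Abo: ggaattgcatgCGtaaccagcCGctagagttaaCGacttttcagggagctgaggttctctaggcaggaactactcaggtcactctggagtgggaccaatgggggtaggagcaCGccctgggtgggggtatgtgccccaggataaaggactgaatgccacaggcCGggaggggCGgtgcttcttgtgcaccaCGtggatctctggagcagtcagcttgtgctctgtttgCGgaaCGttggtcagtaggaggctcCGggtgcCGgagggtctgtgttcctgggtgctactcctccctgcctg
Rp2: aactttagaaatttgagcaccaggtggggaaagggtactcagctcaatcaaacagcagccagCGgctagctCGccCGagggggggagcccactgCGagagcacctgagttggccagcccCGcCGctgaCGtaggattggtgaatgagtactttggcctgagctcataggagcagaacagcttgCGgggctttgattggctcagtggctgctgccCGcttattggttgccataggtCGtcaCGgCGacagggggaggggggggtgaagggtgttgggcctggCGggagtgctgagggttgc
Vom2r63: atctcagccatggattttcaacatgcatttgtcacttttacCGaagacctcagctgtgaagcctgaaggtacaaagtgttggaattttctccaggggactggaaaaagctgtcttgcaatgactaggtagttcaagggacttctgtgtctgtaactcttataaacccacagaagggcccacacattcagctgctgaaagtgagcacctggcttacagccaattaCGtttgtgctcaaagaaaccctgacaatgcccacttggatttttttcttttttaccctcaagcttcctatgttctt

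The promoter of Rp2 held 13 CG, that of Abo 11, that of Tlr4 5 and that of Vom2r63 2. The median of 33469 rat promoters of the same length was 7, and 94.5% held at least 1. As many CG as Rp2, or more, were found in 35.3% of them, and as many as Vom2r63 in 86.4%. Of 176 named genes that were touched by a control-only region and had coordinates of their own, 134 had a promoter sequence in that table. The regions themselves are given by coordinates of the build rn4, as deposited, with no sequence.

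Control-only regions were narrow, and they stood low in the list they came from. Their median width was 8246 bp, against 25916 bp for the 9833 control regions of the same width range that overlapped an AngII region. By the authors' score, the median member stood at percentile 18.0 of the control list and the median overlapping region at percentile 44.7. Of the members, 1166 (64.4%) lay below percentile 25 of the list by score, 528 between 25 and 50, 93 between 50 and 75, and 24 (1.33%) above 75. The members were selected on the presence of H3K36me3 regions in the 2 lists and on their width, so these quantities describe the set and no test was made. The share of control regions without an AngII counterpart fell with width. It was 37.2% of the 2915 regions of 5 to 10 kb, 19.2% of the 2757 of 10 to 20 kb, 5.41% of the 3214 of 20 to 50 kb and 0.834% of the 2758 wider ones.

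**Figure D1:**
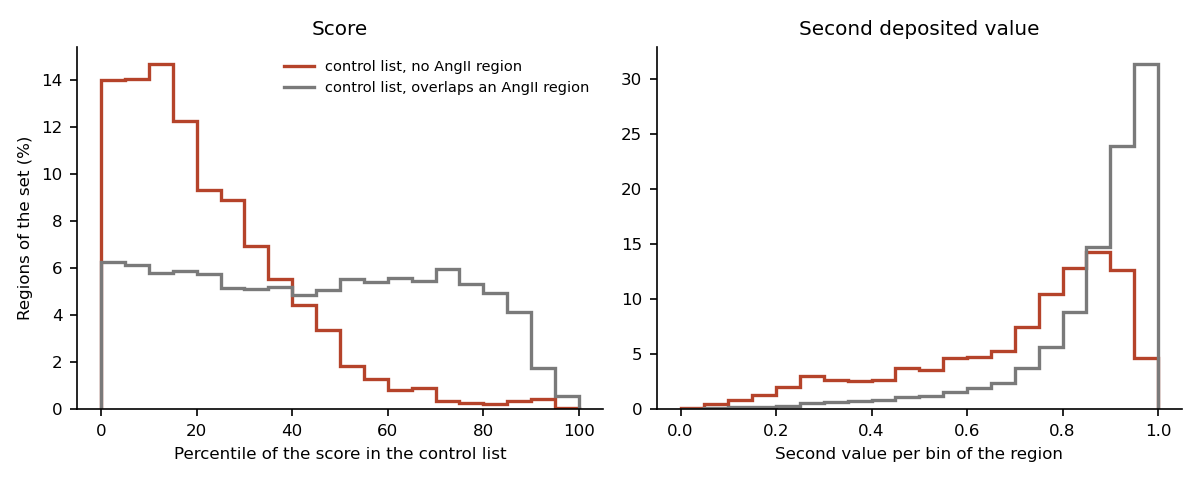
Percent of regions (y axis) by percentile of the authors' score within the control H3K36me3 list (left) and by the second deposited value divided by the region's number of 589-bp bins (right), for the 1811 control-only regions and the 9833 control regions of the same width range that overlapped an AngII region. Control-only regions pile up at low scores (median percentile 18.0 against 44.7) and at lower second values (median 0.779 against 0.912 per bin).

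A second value is deposited for each region, with no statement of its meaning in the labels. It never exceeded the number of 589-bp bins that make up a region of the control list. Per bin, its median was 0.779 over control-only regions and 0.912 over overlapping ones. The gap widened with width. Among regions of 50 kb or more it was 0.315 for the 23 control-only regions and 0.935 for the 2735 overlapping ones. The widest members were thus stretches with a low second value for their size.

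The rule divided a continuous range of widths. Control-only regions of any width numbered 3874, of which 2060 were too narrow and 3 too wide. A width of 5301 bp, or 9 bins, was the narrowest that counted and was shared by 231 members, with scores of 9.34, 9.29 and 9.07 for the first 3 along the genome. The next width below, 4712 bp, held 224 control-only regions, and the last 3 along the genome scored 9.02, 10.2 and 9.62. The 3 that were too wide measured 150784, 202027 and 273885 bp, all on chromosome 1. The widest member measured 144894 bp. The member nearest to an AngII region lay 22 bp from it, the next ones 534 and 701 bp. The 3 regions of the width range with the least overlap shared 46, 355 and 359 bp with an AngII region and were not members. Most members did not lie close to an AngII region, but the lists do not show whether a member fell just short of being listed after AngII. The median distance to the nearest AngII H3K36me3 region was 38.1 kb, 110 members (6.07%) lay within 5 kb of one, and 456 (25.2%) lay more than 100 kb away. To the nearest other control H3K36me3 region the median distance was similar, at 35.9 kb.

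Few control-only regions carried H3K4me3, the mark of gene starts, in either condition. In control, 126 of 1811 overlapped an H3K4me3 region (6.96%, exact Clopper-Pearson 95% interval 5.83 to 8.23%, which covers counting error only, as do all intervals here). After AngII, 129 did (7.12%), and 102 of these regions were the same. H3K4me3 was listed at 24 members in control only and at 27 after AngII only. No H3K4me3 region lay on 1658 members in either list. Among overlapping control regions the share was 63.3% in control and 63.5% after AngII.

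The gap was also present among regions of like width. Within the class of 5 to 10 kb, 76 of 1085 control-only regions (7.0%, 5.56 to 8.69%) and 592 of 1830 overlapping regions (32.3%, 30.2 to 34.5%) carried H3K4me3 in the control list. Within 20 to 50 kb the shares were 10 of 174 (5.75%, 2.79 to 10.3%) and 2155 of 3040 (70.9%, 69.2 to 72.5%). The share rose with width in overlapping regions and stayed between 5.75% and 8.70% in the classes of control-only regions. The opposite set, the 1390 AngII regions of this width range with no control counterpart (13.0% of 10655), lay between: H3K4me3 lay on 35.0% of them in control and on 35.6% after AngII. In the class of 5 to 10 kb, 202 of these 772 AngII-only regions (26.2%, 23.1 to 29.4%) had it in control.

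**Figure D2:**
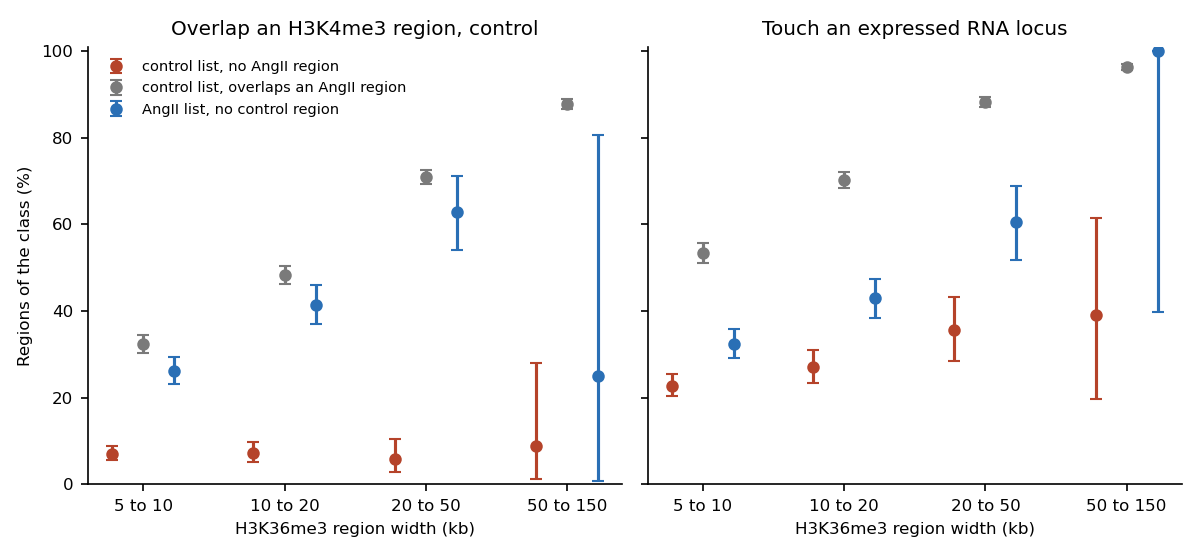
Percent of H3K36me3 regions of each width class (x axis, kb) that overlapped an H3K4me3 region in control (left) or touched an expressed RNA locus (right), for control-only regions, control regions that overlapped an AngII region, and AngII regions with no control counterpart. Bars are exact 95% binomial intervals (counting error only); the widest class holds 23 control-only and 4 AngII-only regions, and in the first 3 classes the control-only interval lies below the other 2 in the left panel.

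Most control-only regions touched no RNA locus of the deposited table. An RNA locus is a stretch that Cufflinks and Cuffdiff treated as one unit, and it was called expressed at 1 FPKM (fragments scaled to length and library size) or more in at least 1 library. Of 1811 regions, 619 (34.2%) touched a locus and 461 (25.5%, 23.5 to 27.5%) touched an expressed one, against 84.5% and 80.0% of overlapping regions. Several loci can share an interval, so a region that touches an expressed locus need not lie on the expressed gene. Within 5 to 10 kb the shares for an expressed locus were 22.8% (20.3 to 25.4%) and 53.4% (51.1 to 55.7%). AngII-only regions lay between here too, with 54.5% at a locus and 38.9% at an expressed one. A further 158 control-only regions touched only loci below 1 FPKM, and 1192 (65.8%) touched none. The latter had a median distance of 67.6 kb to the nearest locus of any level and 106 kb to the nearest expressed one. H3K4me3 in control was listed at 9.98% of the regions at expressed loci, 11.4% of those at silent loci and 5.20% of those at no locus.

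The share of control regions without a counterpart differed between chromosomes. It was lowest on chromosome 12 (15 of 295, 5.08%, 2.87 to 8.25%) and chromosome 10 (33 of 643, 5.13%, 3.56 to 7.13%). It was highest on chromosome 2 (229 of 991, 23.1%, 20.5 to 25.9%) and on the X chromosome (78 of 369, 21.1%, 17.1 to 25.7%). On chromosome 10, 87.2% of the control regions of this width touched an expressed locus, and on chromosome 2, 62.3%. The X chromosome paired its high share with 84.0%. Neighbours in this order had overlapping intervals, as the plot of chromosome shares shows.

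**Figure D3:**
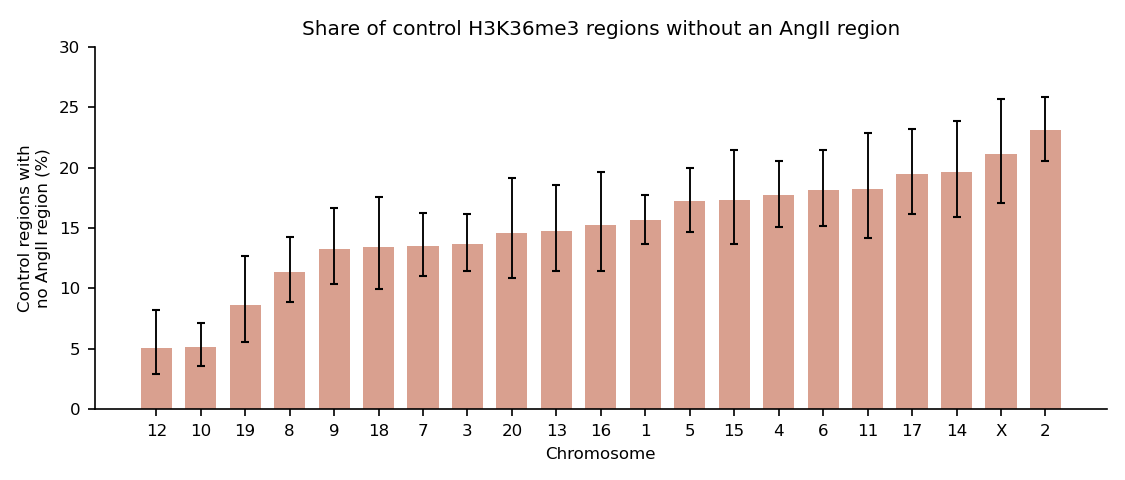
Percent of control H3K36me3 regions of 5000 to 149999 bp on each chromosome (x axis, in rising order) that overlapped no AngII H3K36me3 region. Bars start at 0 and whiskers are exact 95% binomial intervals (counting error only); chromosomes 12 and 10 stand at 5.08% and 5.13%, chromosome 2 at 23.1%.

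The RNA of genes at control-only regions leaned lower after AngII, as that of all expressed loci did. The 1811 regions touched 1395 loci at 510 distinct intervals, since Cuffdiff can give several neighbouring genes one interval. Of these, 576 loci at 327 intervals were expressed, 819 were below 1 FPKM and 416 of the latter were listed at 0 in both libraries. On the scale log2((AngII FPKM + 1)/(control FPKM + 1)) the median of the 576 was -0.31, and that of all 16654 expressed loci was -0.24. At least 2-fold higher after AngII were 15 of the 576 (2.60%), beside 4.64% of all expressed loci. At least 2-fold lower were 20 (3.47%), beside 5.54% of all. The bounds that the authors deposited around each FPKM value did not overlap for 13 of the 15 and 16 of the 20, while 3.04% and 3.07% of all expressed loci passed both limits in the respective direction. Both shares were thus no larger than the background. With AngII values scaled so that the median expressed locus stood at 0, the counts turned to 20 higher and 13 lower, beside 7.01% and 3.597% of all, and the median of the 576 was -0.0653. In bulk RNA, fewer cells of a type and less RNA per cell cannot be told apart.

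Loci with coordinates of their own, where a region can be assigned to one gene, numbered 208. A median of 58.1% of such a locus was under H3K36me3 in control and 3.74% after AngII, and control-only regions made up a median of 13.1%. The cover was part of how they were chosen. Their median log2 ratio was -0.35, against -0.23 over the 13245 expressed loci with coordinates of their own. Of the 208, 4 were at least 2-fold higher (1.92%, beside 4.61% of the 13245), 2 of them with bounds apart (beside 2.9%), and 10 were lower (4.81%, beside 5.45%), 8 of them with bounds apart (3.85%, beside 2.94%). At 90 of them no AngII H3K36me3 was left anywhere on the locus. There 8 were lower (8.89%), 6 of them with bounds apart (2.94% of the 13245 were lower with bounds apart), and 1 was higher. All 6 stood below 1 FPKM after AngII, so they counted as expressed through the control library alone. After the same centring, 5 of the 90 were lower (5.56%, beside 3.47% of the 13245) and 2 higher. Of the 8 lower before centring, 3 came from 1 row of unnamed loci on chromosome 20, described further on. Whether they are parts of 1 transcript is not known, so these counts are not of independent loci. Of the 90, 51 had no accession. At the other 118, 2 were lower and 3 higher. The 90 had a median length of 2.04 kb and a median of 2.22 FPKM in control. The 118 had 208 kb and 4.80 FPKM. H3K4me3 in control was listed at 42.2% of the 90 and 94.1% of the 118. The 2 subsets thus differed in more than their AngII H3K36me3. Their median log2 ratios were -0.35 for the 90 and -0.33 for the 118. The 323 such loci at AngII-only regions had 32 higher and 12 lower, with a median of -0.17.

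**Figure D4:**
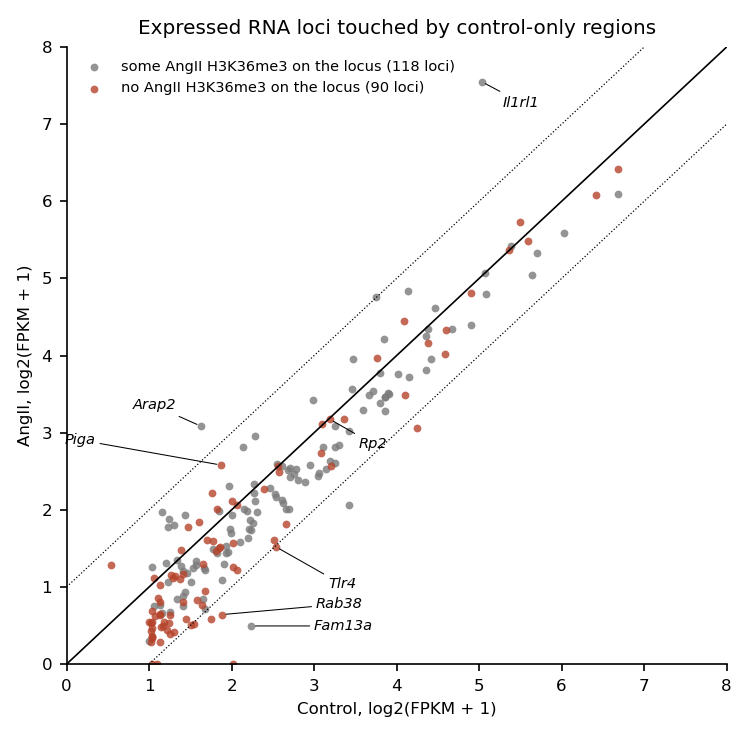
RNA level in control (x axis) and after AngII (y axis), as log2(FPKM + 1), of the expressed loci with coordinates of their own that were touched by a control-only region, 1 point per locus and 1 library per axis. The solid line is equality and the dotted lines are a 2-fold ratio on this scale; 203 of the 208 loci are drawn and 5 above 8 on either axis are not, and most points lie just under the solid line with Il1rl1 far above it.

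Tlr4 was one of the genes with most of the locus under a single control-only region. It encodes the cell-surface receptor for bacterial lipopolysaccharide. Its locus on chromosome 5 (83564099-83577735, rn4) was expressed at 4.80 FPKM without AngII (bounds 2.59 to 7.01) and 1.87 FPKM with it (0.901 to 2.84), a log2 ratio of -1.02 (-0.83 after centring). The upper bound after AngII lay above the lower bound in control, so the ranges overlapped. A region of 8835 bp (chr5:83569216-83578050, score percentile 30.7) covered 62.5% of the locus in control, and no AngII H3K36me3 region touched it. The H3K4me3 region at its start was listed in both conditions, 2.30 kb wide in control and 2.40 kb after AngII.

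At other genes with no listed H3K36me3 after AngII, the RNA was lower beyond the bounds at Rab38 and within them at the others described here. Rab38, a small GTPase of lysosome-related organelles, stood at 2.69 FPKM (1.19 to 4.19) and 0.560 FPKM (0.152 to 0.968), a log2 ratio of -1.24. These bounds were apart, but the region covered only 6.57% of the gene. Abo, the glycosyltransferase of the blood group antigens, stood at 1.66 and 0.749 FPKM (control first, as in all such pairs), and the histone gene H2ac4, wholly covered in control, at 23.0 and 15.3 FPKM. A locus of Acyp2, an acylphosphatase (1.48 and 1.21 FPKM), and S100vp (1.19 and 1.04 FPKM) were also wholly covered in control and not covered after AngII. This Acyp2 locus was 0.741 kb long and 1 of 2 loci with that symbol, so its values are not those of the whole gene. The bounds of Abo, H2ac4, Acyp2 and S100vp overlapped. C8h15orf61 was also wholly covered and stood at 5.33 FPKM (2.25 to 8.42) in control and 2.52 FPKM (0.883 to 4.15) after AngII.

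On the X chromosome, 4 genes with no listed H3K36me3 after AngII had RNA levels that overlapped in their bounds. Rp2, which encodes a GTPase-activating protein of cilia, had 8.12 FPKM without AngII (4.55 to 11.7) and 8.04 FPKM with it (4.50 to 11.6). A control-only region of 19.4 kb covered 42.3% of it, and nothing was listed there after AngII. Piga, which acts in the first step of GPI anchor synthesis, had 31.1% under a control-only region and stood at 2.65 FPKM (1.47 to 3.84) and 4.98 FPKM (3.06 to 6.90), the higher value being that after AngII. Mmgt1, a subunit of the membrane protein insertion complex of the endoplasmic reticulum, stood at 19.9 and 17.0 FPKM with 28.9% under a region. Slc25a14, a mitochondrial carrier, stood at 1.65 and 1.25 FPKM. The largest ratio among the 4 was that of Piga, at a log2 of 0.71. All but Rp2 were picked after their values were seen, as were Kprp, the Lce1 locus, Pdgfc, Mmp16, Slc35f1, Clcn3, Galnt13, Hells, the silent receptor genes and the unnamed loci described further on.

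Some genes had H3K36me3 in both lists and less of the locus under it after AngII. Tc2n lay on chromosome 6 beside Fbln5, a gene of elastic fibres. In control, 94.5% of Tc2n was covered, by a control-only region of 34.8 kb and a second region of 63.0 kb. After AngII 1.59% was covered, by a fragment of 1.64 kb which made the second region count as overlapping. Tc2n RNA was 2.88 FPKM without AngII (1.39 to 4.38) and 1.73 FPKM with it (0.764 to 2.70). Fbln5 lay under a region in both lists, with a width of 90.7 kb in control and 92.6 kb after AngII. Pdgfc, a growth factor of mesenchymal cells, went from 68.7% to 17.8% cover, Mmp16, a membrane-bound matrix metalloproteinase, from 81.6% to 24.4%, Slc35f1 from 79.3% to 29.8% and the chloride-proton exchanger Clcn3 from 82.2% to 49.3%. Their RNA stood at 7.27 and 4.44 FPKM for Pdgfc, 19.6 and 13.0 for Mmp16, 9.71 and 7.10 for Slc35f1 and 20.4 and 14.6 for Clcn3. All 4 were lower after AngII with overlapping bounds. Galnt13, an enzyme of mucin-type glycosylation, held 5 control-only regions along 668 kb and had 13.5% cover in control and 0.410% after AngII, with 11.0 FPKM (7.04 to 15.1) and 8.77 FPKM (5.49 to 12.05).

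**Figure D5:**
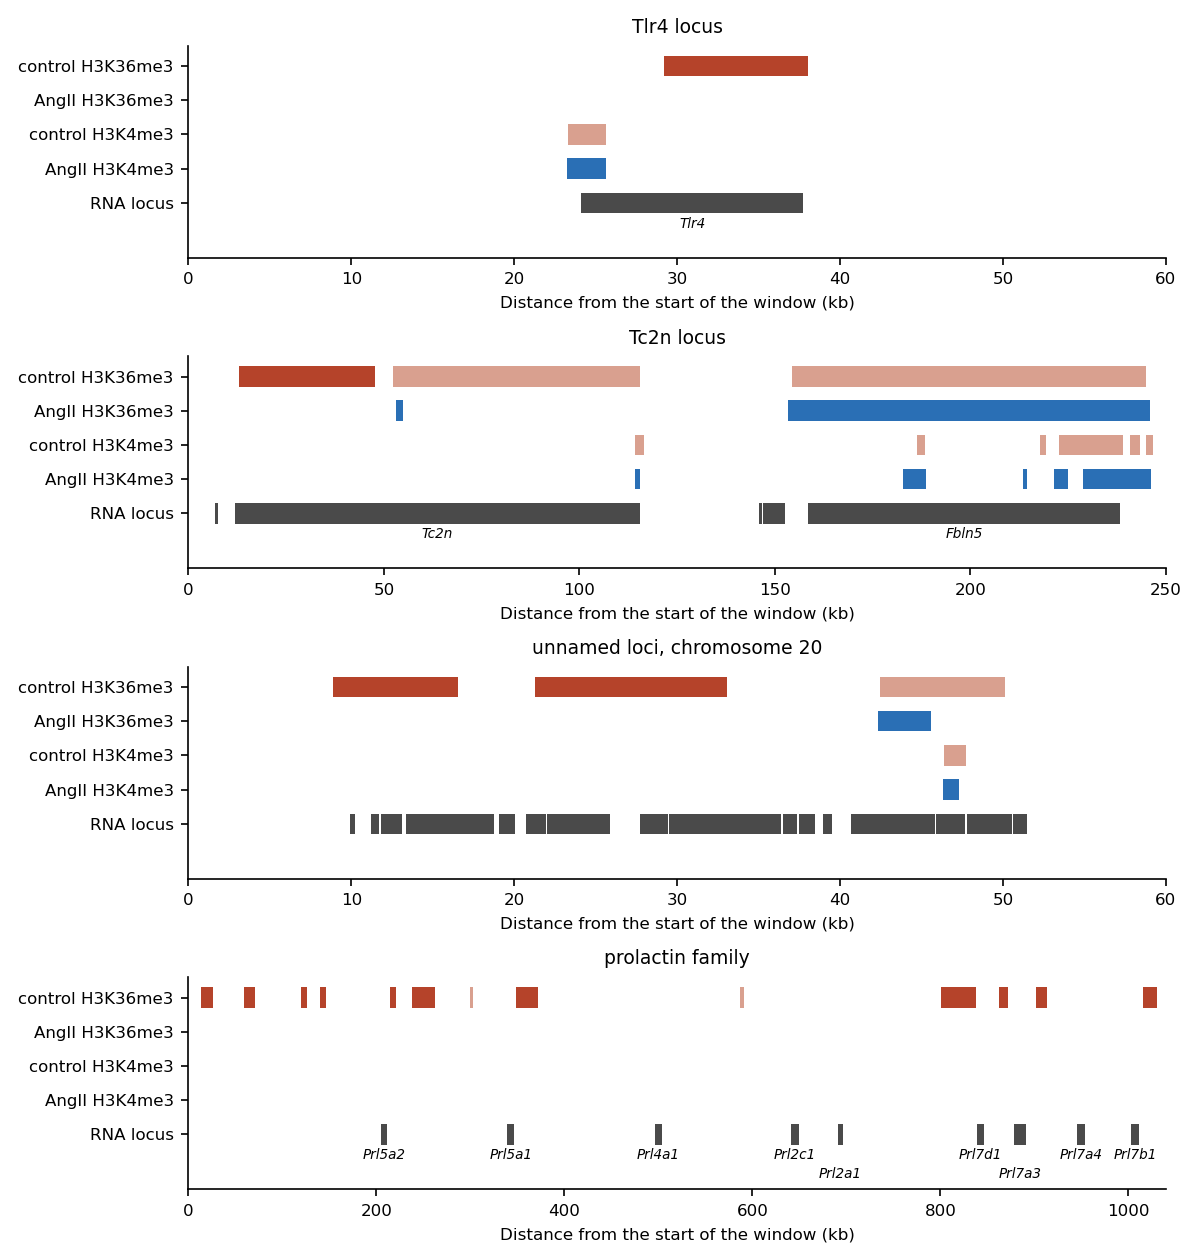
Maps of 4 windows, with distance from the window's start in kb on the x axis and 1 row each for H3K36me3 and H3K4me3 regions in control and after AngII and for RNA loci. Dark red bars are control-only regions, pale red bars other control regions, blue bars AngII regions and grey bars RNA loci; no AngII H3K36me3 bar lies over Tlr4 or in the prolactin window, and a 1.64-kb fragment is left over Tc2n.

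The named genes with the largest increase at control-only regions were Serpinb2, Esm1, Tnfrsf12a and Il1rl1, and the regions covered a small part of each locus. Il1rl1, the receptor of interleukin 33, had coordinates of its own and stood at 31.7 FPKM (19.4 to 44.0) in control and 186 FPKM (108 to 265) after AngII, a log2 ratio of 2.52 with bounds apart. A control-only region of 7.07 kb covered 15.1% of it, while its H3K36me3 cover as a whole was 50.4% in control and 63.8% after AngII, and its H3K4me3 was listed after AngII only. Arap2, a GTPase-activating protein for Arf proteins, had 2.09 FPKM (1.39 to 2.79) and 7.49 FPKM (5.01 to 9.96), also with bounds apart. Unlike Il1rl1, Arap2 had less H3K36me3 after AngII, 6.72% of the locus against 17.8%, all of the control cover lying in 4 control-only regions.

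The other named genes among the 15 higher loci shared an interval with neighbours, so a region at the interval cannot be assigned to them. They were Serpinb2, an inhibitor of plasminogen activators (0.0205 and 11.1 FPKM), Esm1, a secreted proteoglycan (25.1 and 203 FPKM), Tnfrsf12a, the receptor of the cytokine TWEAK (7.93 and 50.4 FPKM), Bhlhe40, a transcriptional repressor (7.72 and 27.0 FPKM), Gem, a GTPase that restrains calcium channels (0.699 and 3.76 FPKM), Wnk4, a kinase of ion transport (0.942 and 4.12 FPKM), and Kprp, a keratinocyte protein (0.601 and 3.12 FPKM). Bounds were apart for each of the 7. Between 2 and 39 loci lay at their intervals, and control-only regions covered from 1.09% to 7.09% of them. Beside Kprp, a locus that holds Lce1e, Lce1f and Lce1m, genes of the cornified envelope, stood at 2.24 and 31.8 FPKM.

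Among the 20 lower loci, 5 had exactly 1 gene symbol. Besides Tlr4 and Rab38 these were Fam13a, Pycard and Lrrtm3, and after centring Rab38 and Fam13a stayed past 2-fold, at log2 ratios of -1.13 and -1.66. Fam13a, which carries a GTPase-activating domain, had the lowest ratio of the named genes. It stood at 3.72 FPKM (1.96 to 5.49) in control and 0.409 FPKM (0.143 to 0.674) after AngII, a log2 ratio of -1.74 with bounds apart, and a region of 15.3 kb covered 15.4% of it, but 54.9% of the locus was still under H3K36me3 after AngII, against 69.0% in control. Pycard, the inflammasome adaptor, stood at 11.6 and 4.40 FPKM, and Lrrtm3, a synaptic adhesion protein, at 39.5 and 17.7 FPKM. Both shared their interval with other loci and had overlapping bounds. The other 15 lower loci had no gene symbol, and 11 of them no accession. The rule for named genes also selected Coasy and Tead2, at log2 ratios of -0.98 and -0.95.

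The most abundant RNAs with a gene symbol at control-only regions came from intervals shared by 2 to 99 loci. The 12 loci with 1 symbol and the highest mean FPKM included Nupr1, Rack1, Hist1h4b, Morf4l2, Ilk, Vldlr, Atf5, Aldoa, Emc10, Rcn3 and Esm1, and none of the 12 had an interval of its own. Nupr1, a stress-induced chromatin protein, stood at 856 FPKM without AngII and 1060 FPKM with it. Hist1h4b, a histone gene, stood at 489 FPKM (420 to 558) and 328 FPKM (278 to 378) with bounds apart but a log2 ratio of -0.58. Control-only regions covered 60.5% of the interval of Morf4l2, a chromatin protein at 278 and 311 FPKM, whose cover went from 78.0% to 17.8%. Over the interval of 99 loci that holds Emc10, Atf5, Rcn3 and Tead2 they covered 0.869%. The most abundant named RNAs were therefore touched, with the exception of Morf4l2, by regions that made up 11.0% or less of the interval.

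A row of unnamed RNA loci on chromosome 20, at 2 control-only regions, was lower after AngII throughout. Between positions 31369895 and 31411488 (rn4) the table lists 16 short loci in a row, XLOC_016921 to XLOC_016936, without accession or symbol. Strand is not given, and whether they are parts of 1 transcript is not known, so they are not independent measurements. All 16 stood lower after AngII. The median was 1.48 FPKM without AngII (range 0.533 to 3.05) and 0.348 FPKM with it (0 to 1.61). Control-only regions of 7.66 and 11.8 kb touched 8 of them, of which 5 had bounds apart. Of the 8 not under those regions, 3 did. XLOC_016928, wholly covered, stood at 2.36 FPKM (1.06 to 3.65) and 0.497 FPKM (0.142 to 0.851). XLOC_016921 stood at 3.05 FPKM without AngII and was listed at 0 after AngII. Near the end of the row lay an H3K4me3 region found in both conditions and a control H3K36me3 region of 7.66 kb, which an AngII region of 3.29 kb overlapped.

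Single unnamed loci gave a mixed picture. XLOC_008464 on chromosome 14 lay inside a member of 105 kb and stood at 3.03 FPKM (2.07 to 3.99) in control and 1.38 FPKM (0.873 to 1.89) after AngII, a log2 ratio of -0.76 with bounds apart. XLOC_022727 on chromosome 5, wholly covered in control and uncovered after AngII, stood at 40.2 FPKM in both. XLOC_011790 on chromosome 17 stood at 102 and 84.6 FPKM, and XLOC_011292 on chromosome 16 at 47.1 and 43.8 FPKM, each wholly covered in control, uncovered after AngII and with H3K4me3 in both conditions. The 5 loci beyond the axes of the plot of RNA levels were short, from 0.0860 kb (XLOC_018851) to 0.695 kb (XLOC_015421). XLOC_018851 was listed at 16827 FPKM (1776 to 31878) and 45610 FPKM (8524 to 82696), and its wide bounds overlapped. FPKM divides by length, so values of such short loci are not comparable with those of genes.

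Receptor genes of smell lay in shared intervals at control-only regions. Of 460 touched loci with exactly 1 symbol and under 1 FPKM in both libraries, 205 (44.6%) were olfactory or vomeronasal receptor genes, which sensory neurons of the nose use, beside 14.3% of all 7215 such loci in the table. The table holds 1035 loci of these families, and 2 of them were expressed. Most of the 205 lay in shared intervals, the largest of which holds 99 loci, and only 8 had coordinates of their own. Among loci with coordinates of their own these 8 were 11.1% of 72, beside 10.9% of all 5708, so the share was near the background there. At those 8, a region can be placed on the gene. Vom2r63 on chromosome 12 lay wholly within a member of 67.1 kb (chr12:18173563-18240708), Or5ae1 on chromosome 1 within one of 81.3 kb and Or6c69 on chromosome 7 within one of 7.66 kb. All 3 were listed at 0 FPKM in both libraries, with no H3K4me3 in either condition and no H3K36me3 after AngII. The member of 120 kb on chromosome 1 touched Vom2r41 and no other locus.

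Control-only regions also followed one another in runs with no AngII region between them. By a rule set after the data were seen (at least 4 members in succession and no AngII H3K36me3 region in the span), there were 23 such runs. They held 117 of the 1811 members, and 12 of the 23 runs held no RNA locus in their span. Of all members, taken singly, 65.8% touched no locus. Runs were not counted in other sets of regions, so their number has no background beside it. The longest held 11 members over 1017 kb of chromosome 17 (42793939-43810561). It spans 9 genes of the prolactin family, hormones that are made mainly by the placenta in rodents: Prl5a2, Prl5a1, Prl4a1, Prl2c1, Prl2a1, Prl7d1, Prl7a3, Prl7a4 and Prl7b1. None was expressed, the highest value being 0.0435 FPKM, none lay under a region, and neither list had H3K4me3 in the span. On chromosome 4 (102994288-103451156), 7 members covered 198 kb, or 43.4% of the span, with no locus of any level. On chromosome 1 (243853851-244283155), 5 members covered 81.4% of a 429-kb span. This last run lay in the interval of 5 loci that holds Hells, a chromatin remodeller of DNA methylation, and the cytochrome P450 genes Cyp2c11, Cyp2c6v1 and Cyp2c7, and it contained the widest member of all. H3K36me3 covered 60.3% of that interval in control and 11.2% after AngII. Hells stood at 4.22 FPKM without AngII (2.09 to 6.34) and 2.49 FPKM with it (1.14 to 3.83).

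Of the 8 members with the highest scores, most lay away from expressed loci. The top one (chr4:38782225-38789881, 7657 bp) had a score of 39.8, rank 429 in the control list, and lay 34.0 kb from the nearest RNA locus. The next 7 ranked from 1018 to 1587. Their second values ran from 1.68 to 3.00 over 9 to 33 bins, which is 0.0606 to 0.250 per bin and low for the set. None of the 8 carried H3K4me3 in control. Only the one on chromosome 5 touched an expressed locus, XLOC_022804, which is 0.0990 kb long and stood at 3396 and 6713 FPKM with wide overlapping bounds. By contrast the 8 widest members, from 85.4 to 145 kb, ranked between 10040 and 17053 of 17425.

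Genes at 10 FPKM or more and genes listed at 0 were touched less often than those between. Among loci with an accession and coordinates of their own, control-only regions touched 0.783% of the 3447 listed at 0 FPKM in control (0.517 to 1.14%), 2.40% (1.57 to 3.49%) of the 1085 above 0 and under 0.1 FPKM, 2.20% (1.67 to 2.85%) of the 2587 from 0.1 to under 1 FPKM, 2.94% (2.44 to 3.50%) of the 4083 at 1 to 10 FPKM and 0.810% (0.571 to 1.11%) of the 4570 at 10 FPKM or more. The intervals of the 3 classes between overlapped each other. A touch needed only 1 bp, and the classes were not matched for locus length. Touched expressed loci with coordinates of their own had a median length of 109 kb, against 6.98 kb for all such expressed loci. The part of length in these shares was not tested. Of the touched loci at 10 FPKM or more, 6 of 37 (16.2%, 6.19 to 32.0%) had no AngII H3K36me3 at all. Of those at 1 to 10 FPKM, 33 of 120 did (27.5%, 19.7 to 36.4%), and of those listed at 0, 21 of 27 (77.8%, 57.7 to 91.4%).

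Few genes of the lists for the tissue and the AngII response were touched, as few of all loci were. Control-only regions touched 4.51% of all 30922 loci and 3.46% of the 16654 expressed ones, so lists of this size would hold few touched genes at the background share. No control-only region touched any of the 18 immediate early genes with a locus, the 11 extracellular matrix genes, the 9 cell cycle genes, the 13 enzymes and readers of H3K36me3 or 14 genes named as lower after AngII in an earlier description of these data, a list that was drawn from these same libraries. Of 9 smooth muscle markers with a locus 1 was touched, Mylk, the myosin light chain kinase, at 48.4 FPKM (27.2 to 69.7) and 43.9 FPKM (24.7 to 63.0). It shared its interval, and a region covered 1.15% of it. Of 13 genes of ion channels and adhesion with long introns, 3 were touched, Cdh13 and Dmd among them. Dmd, the dystrophin gene, held 11 control-only regions along an interval of 2415 kb, and its cover went from 9.66% to 2.59% with 17.4 and 12.5 FPKM. The cover of the cadherin Cdh13 went in the opposite direction, from 29.5% to 65.3%, with 32.9 and 26.8 FPKM.

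Markers of the labelled cell type were present, with 8 of 9 smooth muscle markers expressed, up to 5103 FPKM without AngII and 5244 FPKM with it. No endothelial marker (of 6) and no adipocyte marker (of 3) reached 1 FPKM. Of 6 fibroblast markers 5 were expressed, up to 140 FPKM without AngII and 111 FPKM with it, and of 7 leukocyte markers 2, up to 5.51 and 6.77 FPKM. For neurons and Schwann cells 8 markers had a locus, 2 of them expressed, with the highest at 1.43 and 3.27 FPKM. Among the markers of other cell types, control-only regions touched the fibroblast gene Dcn (0.758 and 0.525 FPKM) and the shared interval of the leukocyte gene Itgam (listed at 0 in both). The part of other cell types in the differences above was not tested.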

How the data were processed

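Per the submitters' processing notes, Bowtie, TopHat, Cufflinks and Cuffdiff and the rat build rn4 were used, without versions. The H3K36me3 and H3K4me3 lists were deposited by the authors as regions with a score and a second value, by a caller not given in the sources used here. Each score served to rank regions inside its own list. RNA levels are the FPKM values that the authors deposited with lower and upper bounds, in 1 table for both conditions. These bounds come from the authors' model and carry nothing on replicates. The depth of the libraries is unknown, and with it the precision it gives.

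Regions were compared by an overlap of at least 1 bp, with Python 3.11.15, pandas 2.3.3, numpy 2.4.6 and scipy 1.17.1. The overlap code was tested on simulated intervals. Samples were grouped by title, with 1 library per condition and assay, so there was no test between conditions. Shares have exact Clopper-Pearson 95% intervals. Ratios used a pseudocount of 1 FPKM, which understates the ratio of weakly expressed loci, and calls used a 2-fold rule. Of 30922 loci with a usable estimate, 16020 matched exactly 1 RefSeq symbol (GRCr8, used for names and promoters). The text names the 12 loci with the highest mean FPKM, the 8 largest increases, the 8 largest decreases and the 10 with the largest share under control-only regions, among loci with 1 symbol and without small RNAs. It also names touched members of the gene lists, and further names were picked later, where stated. The members and lists were chosen with earlier results of these data known. Alternatives varied the width limits, the overlap rule, the score rank, the pseudocount, the FPKM minimum, the scaling and the kind of locus. Some genes that the rule for named genes selected are not reported here.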

Additional observations from a re-analysis of the deposited data

How the results depend on the processing

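The number of control-only regions was 2968 with a minimum width of 2000 bp, 726 with 10000 bp, 117 above percentile 50 of the score and 2625 where an AngII region had to cover 50% or more of the control region to count as its partner. H3K4me3 regions above percentile 50 of their own list's score lay on 3.64% of members in control and 3.04% after AngII. Members touched a locus in 28.9% of cases where it had to cover 50% or more of the member, and in 37.1% with a minimum width of 10000 bp. For an expressed locus these shares were 22.1% and 29.5%, with 31.0% at an FPKM minimum of 0.1 and 15.9% at 5. The median log2 ratio was -0.35 and -0.18 with pseudocounts of 0.1 and 5, -0.26 at an FPKM minimum of 0.1, -0.0086 with no minimum, -0.0653 after centring all expressed loci (AngII values multiplied by 1.21), -0.35 at loci with coordinates of their own and -0.47 where regions covered 50% or more of the locus. At least 2-fold higher and lower were 24 and 69 of 576 loci with a pseudocount of 0.1 and 8 and 1 with 5. They were 4 and 10 of 208 loci with coordinates of their own, beside 4.61% and 5.45% of all such expressed loci. Where regions covered 50% or more they were 1 and 9 of 72 (1.39% and 12.5%), beside 4.64% and 5.54% of all expressed loci. Of these 9, 3 came from the chromosome 20 row. All but Tlr4 and XLOC_026542 stood below 1 FPKM after AngII, so they counted as expressed through the control library alone. Among them, XLOC_008497 and XLOC_009199 each lay at an interval shared by 7 loci. The split of higher against lower calls turned in 4 settings. It turned to 20 and 13 after centring, 12 and 9 of 507 loci with an accession, 10 and 5 of 345 at an FPKM minimum of 5 and, as given, 8 and 1 with a pseudocount of 5. The split of all expressed loci turned in these 4 settings too. Higher and lower were 7.01% and 3.597% of them after centring and 3.48% and 3.02% of those with an accession. The shares were 4.78% and 3.73% at an FPKM minimum of 5 and 1.88% and 0.727% with a pseudocount of 5. With a pseudocount of 0.1 the values were 7.64% and 16.0%. No other recomputed count of regions or loci moved by more than 1.5 times. The causes were not tested. No paired analysis was possible because the conditions had a single library apiece, which also means that leaving out a replicate was not possible.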
